A study of Mus musculus with 120 samples.

Results

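The genes described here are the mouse genes whose symbol begins with Tmem, for transmembrane protein, and whose deposited ribosome footprint total in untreated wild-type cells was 5 or more. The total is in RPKM, reads scaled by transcript length and library depth. Of 237 Tmem genes among the 22417 genes of the table, 109 met that limit and 128 did not. The authors' flag for ER-targeted genes was set for 106 of the 109 and not set for Tmem11, Tmem29 and Tmem214. Just inside the limit lay Tmem107 at 5.00, Tmem74 at 5.04 and Tmem231 at 5.22 RPKM, and just outside it Tmem86a at 4.88, Tmem104 at 4.83 and Tmem238 at 4.62 RPKM. These untreated wild-type totals chose the genes, so they are given as a description without a test: the genes were selected on this value.

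The study followed 3 lines of mouse embryonic fibroblasts after 1 µM thapsigargin, a drug that empties the calcium store of the endoplasmic reticulum (ER) and so causes ER stress. The lines were eIF2a S51A, in which the regulatory serine of the translation factor eIF2a is replaced by alanine, a line labelled ATF4-/-, and wild type (WT). Cells were taken at 0, 0.5, 1, 2 and 4 h and separated by detergent into a cytosolic extract (digitonin) and an ER extract (dodecyl maltoside). Each extract gave ribosome footprints after nuclease digestion and total mRNA-seq after ribosomal RNA removal, with 2 libraries per line, time, extract and assay. No label says whether the libraries within a group are from different dishes of cells, so every p below reflects the spread between libraries, which may be technical.

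Proteins with membrane-spanning segments are usually made by ribosomes docked on the ER. A hydrophobic stretch that emerges from the ribosome is bound by the signal recognition particle, which brings the ribosome with its mRNA to the translocon. A ribosome that has just started a protein has not yet shown that stretch, and a segment near the end of a protein emerges only as translation finishes. Many mitochondrial membrane proteins are instead made on free ribosomes and imported afterwards. During ER stress the kinase PERK phosphorylates eIF2a at serine 51, which lowers initiation of most mRNAs and raises that of Atf4, a transcription factor. The Tmem name groups proteins by a predicted membrane segment alone, so its bearers sit in the ER, Golgi, lysosome, plasma membrane, nuclear envelope and mitochondria.

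Coding sequences of 107 of the 109 genes were read from GENCODE M21 transcripts (GRCm38) and scanned for 19-residue windows with a mean hydropathy of at least 1.6, the usual mark of a membrane-spanning helix. At least 1 such segment was found in 101 of the 107, and none in Tmem11, Tmem29, Tmem70, Tmem126b, Tmem135 and Tmem209. The sequences below are the coding strand around the first segment, 5′ to 3′, with the segment in capitals and up to 12 flanking bases in lower case. They are shown because the position of this segment differs, with exceptions, between genes read mostly on the ER and genes read mostly in the cytosol. Tmem30a, Tmem33 and Tmem59 had untreated WT fractions on the ER of 0.989, 0.984 and 0.988.
Tmem30a: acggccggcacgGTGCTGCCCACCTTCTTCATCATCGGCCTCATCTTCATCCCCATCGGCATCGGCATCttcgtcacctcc
Tmem33: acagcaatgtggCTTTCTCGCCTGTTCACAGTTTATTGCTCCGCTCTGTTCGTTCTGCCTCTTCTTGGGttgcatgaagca
Tmem59: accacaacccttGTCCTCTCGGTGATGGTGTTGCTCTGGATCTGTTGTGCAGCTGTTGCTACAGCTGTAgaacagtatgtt
Tmem126a, Tmem242, Tmem256 and Tmem55a had fractions of 0.400, 0.245, 0.283 and 0.363.
Tmem126a: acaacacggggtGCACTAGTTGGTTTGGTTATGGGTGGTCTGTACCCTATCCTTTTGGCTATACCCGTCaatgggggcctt
Tmem242: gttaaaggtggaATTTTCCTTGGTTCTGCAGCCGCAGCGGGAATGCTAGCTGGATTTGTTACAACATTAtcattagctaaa
Tmem256: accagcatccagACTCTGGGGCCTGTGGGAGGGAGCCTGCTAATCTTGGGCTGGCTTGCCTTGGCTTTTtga
Tmem55a: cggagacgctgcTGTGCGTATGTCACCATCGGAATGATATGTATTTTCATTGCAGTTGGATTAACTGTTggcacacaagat
Tmem167, Tmem258 and Tmem14c encode short proteins and lay between, at 0.553, 0.593 and 0.723.
Tmem167: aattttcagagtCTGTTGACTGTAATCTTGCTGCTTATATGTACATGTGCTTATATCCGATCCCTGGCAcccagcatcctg
Tmem258: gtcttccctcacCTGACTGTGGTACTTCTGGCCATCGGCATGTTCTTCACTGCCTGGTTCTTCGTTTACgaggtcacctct
Tmem14c: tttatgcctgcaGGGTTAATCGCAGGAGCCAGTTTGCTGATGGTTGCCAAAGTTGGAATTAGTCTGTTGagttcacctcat

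All of these segments carry codons with T at the second base, the position that marks most hydrophobic residues. Their share of such codons was 68.4% in Tmem30a, 63.2% in Tmem258, 57.9% in Tmem126a and 42.1% in Tmem242. Tmem30a (chr9:79768943-79793507, minus strand, 7 exons) encodes 364 residues with its first segment at codons 50 to 68, which leaves 296 residues after it. Tmem33 (chr5:67260565-67291461, plus strand, 9 exons) has 246 residues and 199 after the segment, while Tmem59 (chr4:107178399-107200996, plus strand, 8 exons) has 323 residues and 58 after a segment at codons 247 to 265. Tmem59 is read on the ER although little follows this segment. A cleaved signal sequence at its start is known but was not found as a 19-residue window. In Tmem256 (chr11:69838514-69839618, plus strand, 4 exons) the segment is the last 19 of 113 codons and nothing follows it. Tmem55a (chr4:14864076-14915176, plus strand, 7 exons) has 46 residues after its segment of 257, and Tmem126a (chr7:90450700-90457229, minus strand, 5 exons) has 70 of 196. Tmem242 (chr17:5410870-5440259, minus strand, 4 exons) breaks this order, with its segment at codons 31 to 49 and 91 residues after it. Tmem167 (chr13:90089123-90143907, plus strand, 4 exons), Tmem258 (chr19:10204014-10207824, plus strand, 4 exons) and Tmem14c (chr13:41016292-41022586, plus strand, 6 exons) have 72, 74 and 114 residues and 44, 40 and 5 after the segment. They too break the order, with fewer residues after the segment than Tmem55a or Tmem126a but higher fractions.

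Footprint libraries held 6247596 to 15217381 reads in S51A, 2030563 to 8740118 in ATF4-/- and 300192 to 11135522 in WT. Of the WT libraries, 3 held fewer than 500000 reads, namely 1 of the 2 cytosol libraries at 0.5 h, 1 of the 2 at 1 h and 1 of the 2 ER libraries at 1 h. In the shallow cytosol library at 0.5 h the 33 genes with an untreated WT fraction of 0.85 or more and reads in both libraries were 3.69 times the level of the other library at the median. In the other WT groups the same ratio between libraries was 0.832 to 1.22. In S51A cytosol it was 1.71, 1.7, 1.13, 2.57 and 1.42 at 0, 0.5, 1, 2 and 4 h, in S51A ER 1.08 to 1.15, and in ATF4-/- 0.726 to 1.35. The S51A cytosol libraries are thus the less alike of that line, and the part of this gap in its shifts was not tested. The libraries labelled ATF4-/- held footprints on Atf4 in 20 of 20, with totals of 11.54, 166, 280, 342 and 362 RPKM at 0, 0.5, 1, 2 and 4 h, against 132, 1030, 1224, 1560 and 1371 RPKM in WT. Which part of Atf4 the allele lacks was not looked up, so these reads do not check the label. S51A libraries had Atf4 totals of 44.6 to 65.7 RPKM over the 5 times. Summed totals of 10 fibroblast markers were 5309 to 8285 RPKM in S51A, 3164 to 4296 RPKM in ATF4-/- and 2679 to 4053 RPKM in WT, with Lum under 1 RPKM in S51A and ATF4-/-. Endothelial markers summed to at most 0.66 RPKM, blood markers to at most 2.33 RPKM and epithelial markers to at most 4.23 RPKM, and neural markers reached 114 RPKM, mostly through Tubb3 and Map2.

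In untreated WT cells the fraction of footprints on the ER was high for most Tmem genes of the ER, Golgi and nuclear envelope and lower for most of those of mitochondria, with overlap between the places and no test of location. The median of the 79 ER-flagged Tmem genes with a value was 0.866. Among the other 1706 ER-flagged genes at 5 RPKM or more it was 0.928, and among the 6954 unflagged ones 0.381. How many of those other genes had a fraction is not given here. Among the 3 genes of nuclear envelope proteins were Tmem48 (the nucleoporin Ndc1) at 0.979, Tmem43 at 0.978 and Tmem201 at 0.857. Genes of ER membrane proteins had a median of 0.944 over the 10 of 13 with a value, among them Tmem33, Tmem66 (Saraf, a brake on store-operated calcium entry) at 0.982 and Tmem97 (the sigma-2 receptor, which takes part in sterol handling) at 0.981. Golgi genes had a median of 0.955 over 4 of 6. Genes with no listed cytosol reads at 0 h, such as Tmem165 of the Golgi, have no value. These medians leave such genes out, although they were read on the ER.

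The lysosomal and endosomal genes were spread widely. Tmem106b and Tmem9 lay at 0.952 and 0.939, whereas Tmem55a and Tmem55b, which encode phosphatases of the lipid PI(4,5)P2, lay at 0.363 and 0.452. Tmem199, which takes part in V-ATPase assembly, lay at 0.581. Genes of mitochondrial proteins had a median of 0.400 over 9 of 9, close to that of unflagged genes although 8 of the 9 carry the ER flag. Among them were Tmem126a and Tmem126b (0.383), both known from complex I assembly, and Tmem242 and Tmem70 (0.574), both known from ATP synthase assembly. Tmem14c, which takes part in haem synthesis, was the highest of the mitochondrial genes at 0.723, and the unflagged Tmem11, a protein of mitochondrial cristae, was at 0.353. The flag and the fraction disagreed in the other direction for Tmem214, an unflagged gene of an ER protein, at 0.929. Other ER-flagged genes with low values were Tmem65, also of the mitochondrial list, at 0.344, and Tmem134 at 0.333 and Tmem183a at 0.372, which are in no location list.

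**Figure D1:**
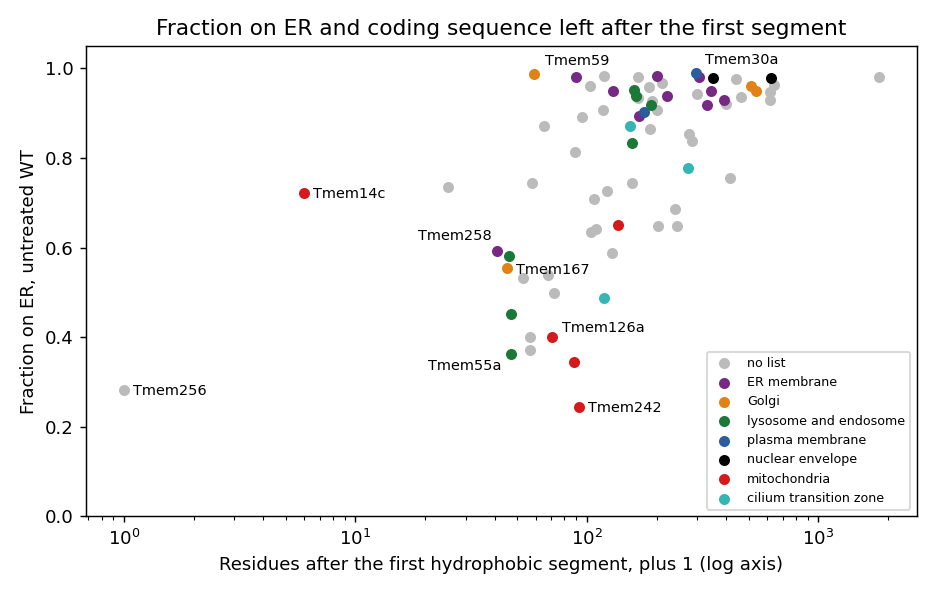
Fraction of footprints on the ER in untreated WT cells (vertical axis) against residues encoded after the first hydrophobic segment, plus 1 (horizontal log axis), for the 74 Tmem genes with both values, coloured by the location of the protein. Mitochondrial genes sit at 0.723 and below, and genes with a long remaining coding sequence sit mostly above 0.85.

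The length of coding sequence left to translate after the first segment went with the fraction. Over the 43 genes at 0.85 or more the median was 199 residues (41 with a value), over the 24 from 0.5 to 0.85 it was 108 residues (23 with a value), and over the 15 under 0.5 it was 63 residues (10 with a value). The number of segments was 3, 2 and 1 at the median in the same order, and the protein length 318.5, 214.5 and 186 residues. Across the 74 genes the correlation of the fraction with residues after the segment was r = 0.43 and rho = 0.62, that with the number of segments r = 0.47 and rho = 0.48 (80 genes), that with protein length r = 0.37 and rho = 0.49 (80 genes), and that with the WT total r = 0.11 and rho = 0.34 (82 genes). These correlations are across genes of the same 4 libraries, where short proteins also carry few footprints, so they describe the genes and are given with no p. The 27 genes with no untreated WT fraction, for want of listed reads in 1 of the extracts, had lower totals (median 8.40 RPKM) and a median of 260 residues after the segment.

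At 0.5 and 1 h after thapsigargin, footprints of the Tmem genes were found less on the ER in ATF4-/- and WT cells, while S51A cells kept most of them there. At 2 h the S51A median was also lower, near that of ATF4-/-. For the 74 genes with a fraction at all 5 times in all 3 lines, median fractions at 0, 0.5, 1, 2 and 4 h were 0.851, 0.795, 0.841, 0.772 and 0.870 in S51A. In ATF4-/- they were 0.882, 0.567, 0.666, 0.759 and 0.759. In WT they were 0.868, 0.463, 0.581, 0.663 and 0.799. The lowest value of the ATF4-/- and WT series was that of 0.5 h, and in S51A that of 2 h. Without the 3 shallow libraries the WT medians at 0.5 and 1 h were 0.578 and 0.640, and 69 and 66 of the 74 genes lay below their own 0 h value. Over all genes with both values, the fraction at 0.5 h was below that of 0 h for 90 of 108 genes in S51A, 104 of 104 in ATF4-/- and 73 of 76 in WT. At 2 h it was so for 87 of 108, 90 of 103 and 66 of 76, with median differences of -0.068, -0.078 and -0.1125. No test was run at 2 h. The WT counts leave out genes without listed cytosol reads, such as Tmem127, Tmem41a and Tmem9b at 0.5 h. These counts were not taken over all genes, whose ER to cytosol ratio was also lower at the median at 0.5 h.

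**Figure D2:**
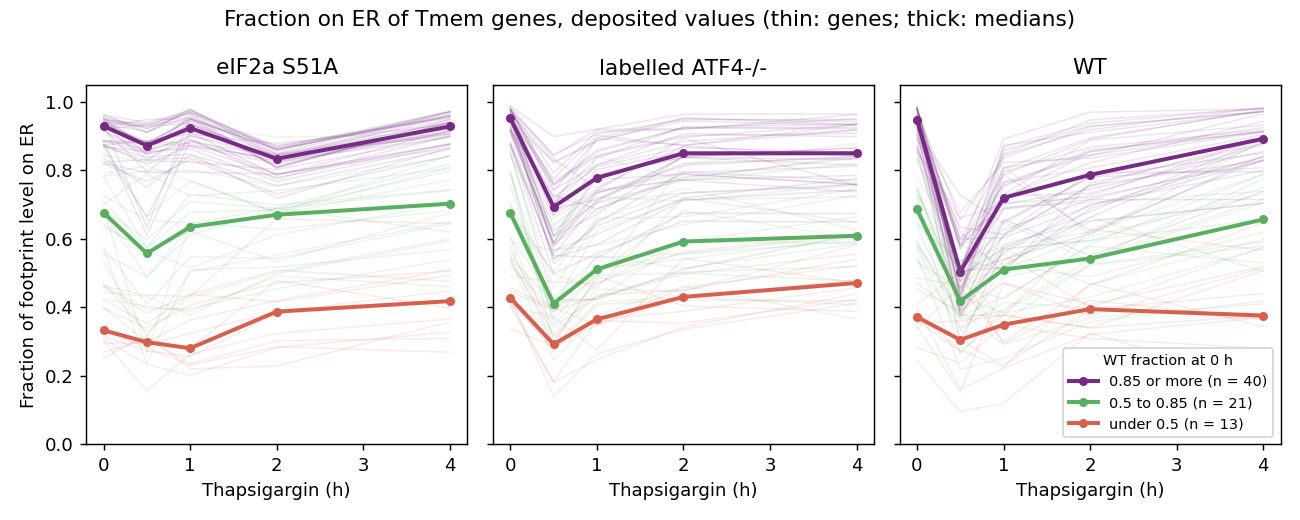
Deposited fraction of footprints on the ER (vertical axis) against hours of thapsigargin (horizontal axis) in S51A, the line labelled ATF4-/- and WT; thin lines are single Tmem genes and thick lines medians of the 40, 21 and 13 genes with an untreated WT fraction of 0.85 or more, 0.5 to 0.85 and under 0.5. The upper class was at 0.873, 0.694 and 0.505 at 0.5 h in the 3 lines, and the WT value at that time includes a shallow library.

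The medians differed most from 0 h among genes that started on the ER. Of the 74 genes, the 40 at 0.85 or more in untreated WT had medians of 0.93, 0.873, 0.924, 0.834 and 0.929 in S51A, 0.953, 0.694, 0.778, 0.85 and 0.85 in ATF4-/-, and 0.948, 0.505, 0.720, 0.787 and 0.893 in WT, over the same times. Without the shallow libraries the WT medians at 0.5 and 1 h were 0.713 and 0.728, and 38 and 40 of the 40 lay below 0 h. The 13 genes under 0.5 had WT medians of 0.372, 0.305, 0.349, 0.395 and 0.376. The class was set by the WT 0 h value, so the WT difference from 0 h shares that value, and those of S51A and ATF4-/- do not. Genes of ER membrane proteins fell within the upper pattern, with medians of 0.912, 0.864, 0.911, 0.819 and 0.912 in S51A and 0.953, 0.668, 0.783, 0.838 and 0.837 in ATF4-/-. Genes of mitochondrial proteins were at 0.489, 0.320, 0.437, 0.450 and 0.541 in ATF4-/- and at 0.422, 0.351, 0.437, 0.420 and 0.494 in S51A.

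The move was tested on single libraries recovered from the deposited means as the change of log2(ER level) minus log2(cytosol level) from 0 h, called the shift below. Each level entered as log2(RPKM + 1), limma was fitted over 10467 genes and 60 libraries, and a shift was called at a Benjamini-Hochberg adjusted p under 0.05. At 0.5 h, a time added after the fractions had been seen, no shift was called among the 109 Tmem genes in S51A, where 2.79% of all genes tested were called. With limma 4 of them had an unadjusted p under 0.05, and voom on the recovered reads called 1. In ATF4-/- 40 of 109 were called, all towards the cytosol, against 14% of all genes. All shifts of a line share its 0 h libraries. In WT the summed level of those libraries chose the genes, so WT shifts from 0 h are given as a description. With that limit, 58 of the 109 had an adjusted p under 0.05, all towards the cytosol, against 21.5% of all genes, and 60 did so without the shallow libraries. Of the other ER-flagged genes tested, 70.1% did so. As 106 of the 109 carry that flag and most genes do not, the shares of all genes, here and below, are an unlike measure. They do not show a trait particular to Tmem genes. The share of other ER-flagged genes called in ATF4-/- is not given here.

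Median shifts of the Tmem genes at 0.5 h were -0.48 in S51A, -1.6 in ATF4-/- and -1.94 in WT, against -0.45, -0.62 and -0.28 for all genes tested. Scaling each extract by a trimmed mean lowered the ATF4-/- count to 14, and leaving out 1 library gave 23 (cytosol b, 0 h), 24 (cytosol a, 0.5 h) or 25 (ER a, 0 h), where a and b tell the 2 recovered libraries of a group apart. WT columns list no library with fewer than 4 reads for a gene, which in a shallow library is a high level. Restricted to genes with reads listed in every compared library, 27 of 37 Tmem genes passed in WT, against 18.7% of all such genes. Requiring 20 predicted reads in every library left 5 Tmem genes in WT, of which 4 passed, against 23.1% of all such genes, and 33 in ATF4-/-, of which 17 were called, against 22%.

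A test of the WT shift that leaves the 0 h libraries out compares 0.5 h with 4 h, given as 0.5 h minus 4 h, and was added after the values had been seen. Of the 56 Tmem genes with reads listed in every compared library it called 43, all towards the cytosol at 0.5 h, against 31.1% of such genes. Of all 109 it called 46 towards the cytosol and 3 towards the ER (Tmem29, Tmem134 and Tmem170b), against 25.5% of all genes in either direction. The median was -1.26, against -0.42 for all genes, and the largest shifts were those of Tmem59 at -5.43, Tmem30a at -4.84, Tmem66 at -4.45, Tmem109 at -4.04 and Tmem48 at -4.00, with limma adjusted p-values of 1.51e-05, 2.15e-05, 3.34e-05, 8.65e-05 and 2.76e-05. Without the shallow libraries they were -4.23, -3.33, -3.46, -3.22 and -3.04. Trimmed-mean scaling left 27 calls in all, 24 of them towards the cytosol.

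**Figure D3:**
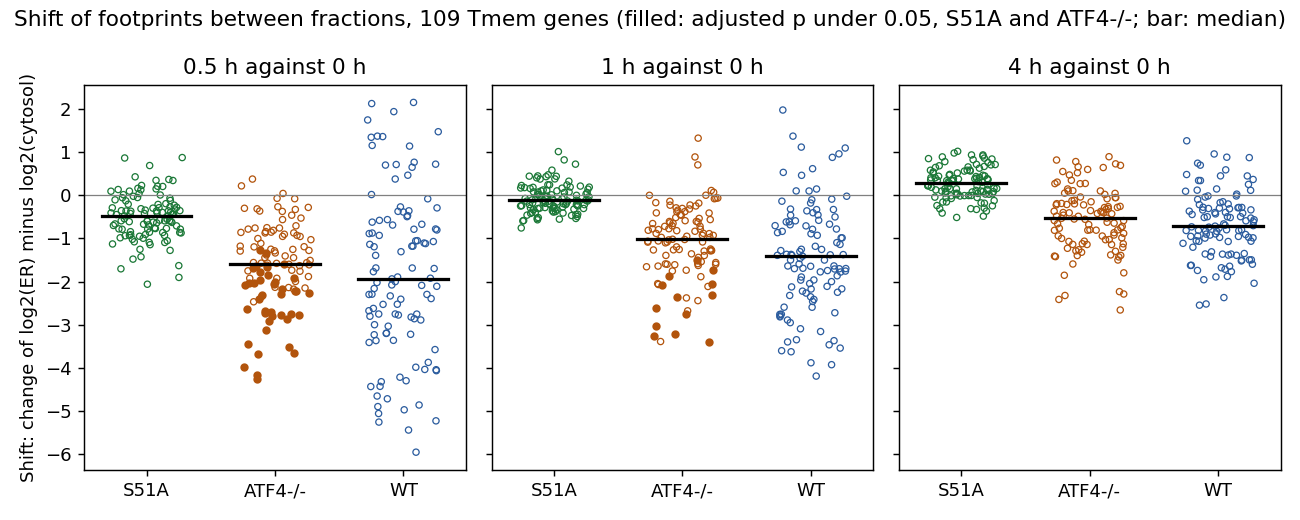
Shift of the ER to cytosol log2 ratio from 0 h (vertical axis) for each of the 109 Tmem genes at 0.5, 1 and 4 h in S51A, the line labelled ATF4-/- and WT; filled points of S51A and ATF4-/- have an adjusted p under 0.05, WT points are open because WT shifts from 0 h are given as a description, and bars are medians. At 0.5 h the medians were -0.48, -1.6 and -1.94, and no point of S51A is filled at any of the 3 times.

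At 1 h the shift was called for 0 Tmem genes in S51A and 13 in ATF4-/-, all 13 towards the cytosol, where 0% and 3.12% of all genes were called. In S51A limma gave 0 of the 109 an unadjusted p under 0.05 and voom called 0. The ATF4-/- count was 5 without ER library a at 1 h or cytosol library b at 0 h, 6 without cytosol library a at 1 h and 8 without ER library a at 0 h. As a description, 34 Tmem genes in WT had an adjusted p under 0.05, all towards the cytosol, against 11.9% of all genes, and 52 did so without the shallow libraries. Both settings called many unchanged genes in simulated data. With reads listed in every compared library the WT figure was 23 of 41, against 11% of such genes. At 4 h limma called 0 Tmem genes in S51A and ATF4-/-, and 0 passed in WT, where 0%, 0.0764% and 0.172% of all genes did so. At an unadjusted p under 0.05 there were 0, 17 and 20, voom called 0, 1 and 0, and the medians were 0.28, -0.53 and -0.72. A shift that misses the threshold does not show that the ratio had returned to that of 0 h.

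Differences between the lines were taken on the shift itself. The test of WT against S51A that does not use the 0 h libraries compares the shift between 0.5 h and 4 h. It was lower in WT for 6 of 109 Tmem genes, against 1.89% of all genes called in either direction, and the 5 with the largest differences were Tmem30a at -3.85, Tmem66 at -3.58, Tmem48 at -3.35, Tmem209 at -3.05 and Tmem106b at -2.92 (limma adjusted p = 0.0443, 0.0473, 0.0374, 0.00787 and 0.0453). With reads listed in every compared library 1 of 56 was called, Tmem209, against 0.214% of such genes. The count was 1 by voom, trimmed-mean scaling or the depth filter, 3 without the shallow libraries, between 1 and 7 without any other single library, and 43, of which 12 were higher, without WT cytosol library a at 0.5 h, which leaves only the shallow library there. As a description, since they use the WT 0 h libraries, differences of the shift from 0 h had an adjusted p under 0.05 for 31 Tmem genes at 0.5 h and 12 at 1 h, all lower in WT, against 7.85% and 1.81% of all genes. With reads listed in every compared library these were 14 of 37 and 11 of 41, against 6.26% and 2.43% of such genes. At 0.5 h the figure was 26 without the shallow libraries, 17 without S51A cytosol library b at 0 h or WT cytosol library b at 0.5 h, 19 without S51A ER library a at 0 h, and 56, of which 7 were higher in WT, without WT cytosol library a at 0.5 h. At 1 h it was 2 without S51A cytosol library b at 0 h, 4 without S51A ER library a at 0 h, 6 or 7 without any single S51A library at 1 h, WT ER library b at 0 h or WT cytosol library a at 0 h, and 24 without the shallow libraries. ATF4-/- had a lower shift than S51A at 0.5 h for 2 genes, Tmem14c and Tmem128, against 0.325% of all genes, and 13 of the fits that left out 1 library called 0 or 1 gene. Between WT and ATF4-/- at 1 h, again using the WT 0 h libraries, limma gave 0 of 109 an adjusted p under 0.05, against 0.0191% of all genes, with 8 at an unadjusted p under 0.05 and 0 by voom. The median of that difference was -0.25, which does not show that the lines acted alike.

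Tmem30a encodes the partner subunit of lipid flippases of the plasma membrane. Its ER levels at 0.5 h were 20.8 and 21.5 RPKM in WT, against 97.7 and 130 RPKM at 0 h, and its cytosol levels were 5.54 and 51.8 RPKM, against 1.02 and 1.41 RPKM. Both extracts changed, the ER libraries of the 2 times do not overlap, and the high cytosol value of 51.8 is that of the shallow library. The shift from 0 h was -5.44, or -3.93 without the shallow libraries. At 4 h the WT levels were 94.7 and 93.4 RPKM on the ER and 1.87 and 1.70 RPKM in the cytosol. In ATF4-/- the ER levels were 13.2 and 12.3 RPKM at 0.5 h, against 32.5 and 36.7 RPKM at 0 h (shift -2.74, limma adjusted p = 0.0106). S51A ER levels overlapped, at 82.5 and 89.1 RPKM at 0.5 h and 84.7 and 93.9 RPKM at 0 h (shift -0.48, adjusted p = 0.784).

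Tmem33, an ER membrane protein that binds reticulons, kept more of its ER footprints in ATF4-/-. There its ER levels were 74.3 and 102 RPKM at 0.5 h, against 121 and 102 RPKM at 0 h, while its cytosol levels were 43.0 and 44.6 RPKM, against 2.14 and 2.23 RPKM. Most of its ATF4-/- shift of -4.16 (SE 0.70, limma adjusted p = 0.000141) was thus a rise in the cytosol extract. In WT its shift from 0 h was -5.25, or -4.44 without the shallow libraries, and between 4 h and 0.5 h it was -3.54 (limma adjusted p = 0.000381). The largest WT shifts from 0 h were those of Tmem59, a Golgi protein of amyloid precursor processing, at -5.95, Tmem30a and Tmem33. Next were Tmem97 at -5.22 and Tmem165, a Golgi manganese transporter, at -5.05. Without the shallow libraries Tmem59, Tmem97 and Tmem165 were at -4.75, -4.24 and -3.98, and the WT cytosol level of Tmem165 at 0 h is listed at 0 in both libraries. The largest ATF4-/- shifts at 0.5 h were those of Tmem97 at -4.25, Tmem33, Tmem50a at -3.97, Tmem176b at -3.68 and Tmem9 at -3.66.

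**Figure D4:**
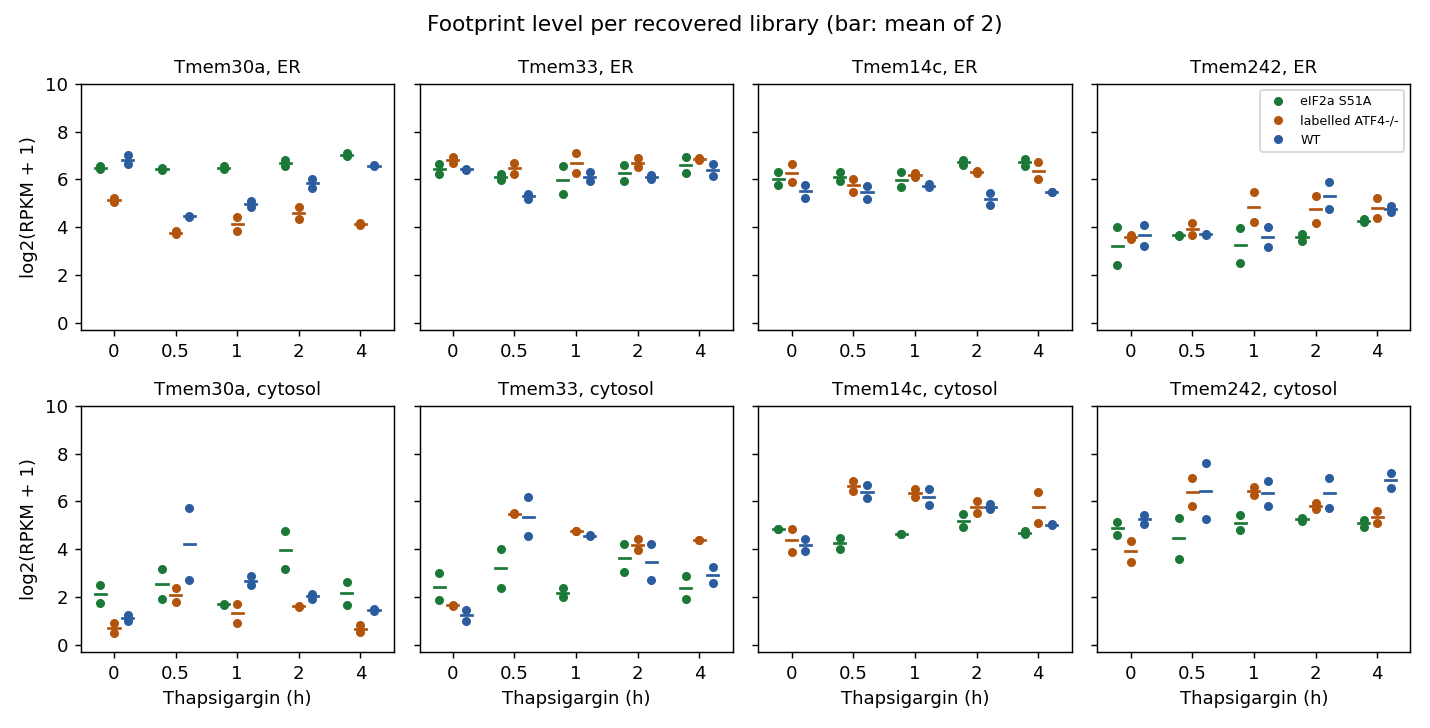
Footprint level, log2(RPKM + 1), of Tmem30a, Tmem33, Tmem14c and Tmem242 in each ER library (upper row) and cytosol library (lower row) at the 5 times in S51A, the line labelled ATF4-/- and WT; bars are means of 2 libraries. Cytosol levels of Tmem33 at 0.5 h were 43.0 and 44.6 RPKM in ATF4-/-, against 2.14 and 2.23 RPKM at 0 h.

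Of the 2 genes whose shift differed between ATF4-/- and S51A at the threshold, Tmem14c had the larger difference. In ATF4-/- its cytosol levels were 114 and 85.3 RPKM at 0.5 h, against 27.6 and 13.9 RPKM at 0 h, and its ER levels 63.7 and 43.8 RPKM, against 99.9 and 57.7 RPKM. In S51A its cytosol levels were lower at 0.5 h, at 21.5 and 15.2 RPKM, against 28.1 and 27.5 RPKM. The cytosol libraries of the 2 lines moved in opposite directions and did not overlap at 0.5 h. The difference of the shifts was -3.47 (SE 0.70, adjusted p = 0.0192 by limma), and the WT shift at 0.5 h was -2.29 from 0 h and -1.39 from 4 h (limma adjusted p = 0.0372 for the second). Tmem128 behaved alike, with ATF4-/- cytosol levels of 33.6 and 40.8 RPKM at 0.5 h, against 6.88 and 8.60 RPKM at 0 h, and S51A cytosol levels of 5.82 and 6.92 RPKM, against 7.15 and 8.41 RPKM (difference -2.73, SE 0.61, limma adjusted p = 0.0366).

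Among the Tmem genes, those read mostly in the cytosol from the start showed smaller shifts. Of the 40, 21 and 13 genes at 0.85 or more, 0.5 to 0.85 and under 0.5 in untreated WT, 27, 3 and 1 were called at 0.5 h in ATF4-/-, with medians of -2.20, -1.45 and -0.82. In WT between 4 h and 0.5 h 29, 7 and 1 were called towards the cytosol and 0, 0 and 2 towards the ER, with medians of -2.41, -0.42 and 0.28. In S51A none was called, with medians of -0.59, -0.44 and -0.27. Over all genes 14% were called in ATF4-/-, 25.5% in WT and 2.79% in S51A, in either direction. Shares of all genes in the same fraction classes or locations are not given here, so no trait particular to Tmem genes is shown. By location, ATF4-/- shifts at 0.5 h were called for 7 of 13 ER membrane genes, 3 of 6 Golgi genes, 2 of 7 lysosomal and endosomal genes, 2 of 4 plasma membrane genes, 2 of 3 nuclear envelope genes, 2 of 9 mitochondrial genes and 2 of 4 ciliary transition zone genes. In WT between 4 h and 0.5 h the counts were 7, 5, 2, 2, 2, 2 and 1, of the same 13, 6, 7, 4, 3, 9 and 4 genes. The 2 mitochondrial genes called in both lines were Tmem14c and Tmem126a, the second at -1.66 in ATF4-/- and -1.53 in WT. Tmem242 was not called, at -2.14 in ATF4-/- (limma adjusted p = 0.097) and -0.59 in WT (adjusted p = 0.647).

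Levels were compared as the mean of the log2 changes of the 2 extracts. For a gene read on the ER its small cytosol part thus counts as much as its ER part. Levels are scaled by library depth, so a rise or fall is relative to other footprints and not an amount of protein made. In S51A few Tmem genes passed the test after thapsigargin. At 1 h limma called 0 of 109, against 0.373% of all genes, with 1 at an unadjusted p under 0.05 and 0 by voom. At 4 h it called 1, against 8.24% of all genes, and that was Tmem55a, the PI(4,5)P2 phosphatase gene. Its cytosol levels were 19.6 and 21.2 RPKM at 4 h, against 54.6 and 32.5 RPKM at 0 h, and its ER levels 12.1 and 17.3 RPKM, against 17.2 and 23 RPKM. The change was -0.72 (SE 0.19, adjusted p = 0.0131), and 4 of the fits that left out 1 library gave no call. Voom called 7 Tmem genes at 4 h, 5 higher and 2 lower, and so did the fit without the shallow WT libraries, by the same split.

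In ATF4-/- the Tmem genes called after the drug were higher. At 1 h 19 were called higher, against 12.4% of all genes called in either direction, and 7 of the 19 had opposite signs in the 2 extracts. At 4 h 20 were called higher, against 15.7%, with the same sign in both extracts for all 20. Of these, 5 were among the 13 ER membrane genes, 2 among the 9 mitochondrial genes and 0 among the 6 Golgi genes. The median changes of the 109 were 0.40 at 1 h and 0.44 at 4 h, against 0.04 at both times for all genes tested. Voom called 37 higher and 1 lower at 1 h and 40 higher and 1 lower at 4 h, and the fit without the shallow WT libraries called 33 and 1, and 38 and 1. Without ER library b at 0 h the counts were 10 and 12, without cytosol library a at 0 h 12 and 13, and at 1 h the count was 11 without ER library b at 1 h and 12 without cytosol library b at 0 h.

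Tmem206, which encodes the proton-activated chloride channel Pacc1, rose in ATF4-/- by 1.92 at 4 h (SE 0.37, limma adjusted p = 0.000299). Its ER levels there were 33.2 and 24.4 RPKM at 4 h, against 7.96 and 5.54 RPKM at 0 h, and its cytosol levels 3.55 and 6.20 RPKM, against 0.674 and 0.408 RPKM. All libraries at 4 h lay above all at 0 h within each extract. Its deposited totals at 0, 0.5, 1, 2 and 4 h were 12.2, 11.9, 9.69, 10.4 and 10.5 RPKM in S51A, 7.29, 23.2, 25.7, 26.7 and 33.7 RPKM in ATF4-/- and 7.73, 18.5, 21, 13.9 and 14.4 RPKM in WT. The S51A series stayed between 9.69 and 12.2 RPKM, while the other lines were above their 0 h totals at each later time. Other large rises at 4 h in ATF4-/- were those of Tmem218, a ciliary gene, at 1.75 (adjusted p = 0.00439), Tmem97 at 1.55 (adjusted p = 0.0328), Tmem176a at 1.54 (adjusted p = 0.00286) and Tmem171 at 1.38 (adjusted p = 0.0365), by limma. Tmem97 and Tmem171 lost their call under 8 and 10 of the alternatives.

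At 1 h in ATF4-/- the rises were led by Tmem242 at 1.89, Tmem9 at 1.74, Tmem206 at 1.71, Tmem171 at 1.57 and Tmem109 at 1.41. For Tmem9, an endosomal and lysosomal protein, the rise was in the cytosol, where levels were 30.1 and 27.7 RPKM at 1 h, against 1.68 and 1.82 RPKM at 0 h. Its ER levels overlapped, at 40.2 and 51.7 RPKM at 1 h and 55.0 and 35.4 RPKM at 0 h. Tmem109, which encodes a cation channel of the ER and nuclear membranes, likewise changed by 0.10 on the ER and 2.71 in the cytosol. Tmem242 rose in both extracts, by 1.26 and 2.51, and its deposited totals were 25.9, 104, 116, 83.2 and 68.6 RPKM in ATF4-/- over the 5 times.

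For WT the untreated level chose the genes, so changes from 0 h are given without a test. Median log2 changes of the 109 were 0.20, 0.22, 0.21 and 0.33 at 0.5, 1, 2 and 4 h. At 4 h the highest were Tmem74, an autophagy gene, at 1.69, Tmem154 at 1.58 and Tmem242 at 1.37, and the lowest Tmem141 at -1.22 and Tmem171 at -1.08. Deposited WT totals of Tmem74 over the 5 times were 5.04, 7.65, 13, 15.4 and 22.2 RPKM. In the same cells Tmem242 had 49.7, 127, 96.4, 130 and 147 RPKM.

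The WT levels at 4 h and 1 h, which the choice of genes did not use, were compared with a test. Of the 109, 9 were called higher and 8 lower at 4 h, against 30.8% of all genes called. Where reads were listed in every compared library, 1 was called higher and 6 lower of 50, against 35.2% of such genes. Tmem208, whose human product belongs to the SND targeting pathway to the ER, fell by 1.35 (SE 0.20, limma adjusted p = 3.7e-06). Its cytosol levels were 6.32 and 4.34 RPKM at 4 h, against 27.1 and 26.5 RPKM at 1 h, and its ER levels 34.2 and 21.8 RPKM, against 37.5 and 44.0 RPKM. The cytosol libraries differed more than those of the ER, and neither pair overlapped. Tmem109 fell by 1.47 (adjusted p = 0.00131), Tmem50a by 1.23 (adjusted p = 0.00162) and Tmem198b by 1.16 (adjusted p = 0.00299), by limma. Tmem171 fell by 2.10 (adjusted p = 0.000696), with deposited WT totals of 7.11, 26.5, 21.4, 5.94 and 2.19 RPKM over the 5 times. The calls upward of Tmem154, Tmem60, Tmem248, Tmem65 and Tmem74 each involve a shallow 1 h library with no listed reads. The count of 17 became 35 without cytosol library a at 1 h, 11 without 1 or the other shallow library at 1 h, 10 without cytosol library b at 4 h and 9 without ER library b at 4 h.

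S51A and WT differed in the change between 1 h and 4 h for 9 Tmem genes, 8 of them higher in S51A, against 17.4% of all genes. With reads listed everywhere 6 of 50 were called, all higher in S51A, against 23% of such genes, and without WT ER library a or WT cytosol library a at 1 h the calls were 8 higher with 7 lower and 8 higher with 6 lower. The difference was 2.94 for Tmem171, 2.17 for Tmem109, 1.83 for Tmem208, and 1.44 for both Tmem50a and Tmem198b, with limma adjusted p-values of 0.00199, 0.00204, 2.5e-05, 0.0146 and 0.0157. Deposited S51A totals of Tmem208 were 30.8, 24.9, 25.8, 34.3 and 43.4 RPKM over the 5 times, against 38.6, 55.9, 67.5, 43.0 and 33.3 RPKM in WT. S51A was thus higher at 4 h than at 1 h while WT was lower.

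At 4 h many Tmem genes differed between the lines, in shares no higher than those of all genes. Between S51A and WT 26 were called higher and 19 lower in S51A, against 48% of all genes, and with ATF4-/- 17 were called higher and 21 lower than in WT, against 48.6%. With trimmed-mean scaling the splits were 32 higher and 14 lower in S51A and 30 higher and 15 lower in ATF4-/-, so which direction prevails in ATF4-/- depends on the scaling, and voom gave 29 higher and 15 lower there. With reads listed in every compared library, 15 of 88 were higher and 18 lower in S51A, against 47.7% of such genes called. In ATF4-/- 14 of 88 were then higher and 19 lower, against 51.8%. Which direction prevails in S51A thus depends on that limit. The lines are separate and differed in marker levels (given above), and fewer cells of a kind and less RNA per cell cannot be told apart in such samples. The 2 comparisons share the WT libraries. Genes were chosen by their WT total at 0 h, so Tmem genes low in WT but high in S51A or ATF4-/- could not enter. The splits by direction and the largest differences share that choice and are given as a description. Tmem45a was the most different gene in both. Its ER levels at 4 h were 12.7 and 10.7 RPKM in S51A and 0.188 and 0.493 RPKM in ATF4-/-, against 152 and 111 RPKM in WT. The changes were -3.68 (SE 0.33) and -5.50 (SE 0.33). The lines already differed at 0 h, with totals of 9.47, 0.703 and 167 RPKM, and the last of these chose the gene.

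Tmem74 was likewise lower in both mutant lines, with ER levels at 4 h of 1.14 and 0.765 RPKM in S51A and 1.35 and 1.68 RPKM in ATF4-/-, against 15.7 and 16.7 RPKM in WT. Its changes were -2.83 and -2.65, given with no p because the gene passed the limit of 5 RPKM through WT alone. Its totals stayed between 0.851 and 1.19 RPKM in S51A and between 0.364 and 1.72 RPKM in ATF4-/-. Tmem154 was listed at 0 in all 4 ATF4-/- libraries at 4 h, while WT had 10.8 and 14.6 RPKM on the ER. Tmem176b, of the MS4A-like family, was lower by 1.87 in S51A and by 2.25 in ATF4-/-, and Tmem251, needed for the mannose-6-phosphate tag of lysosomal enzymes, was -2.12 in S51A (adjusted p = 4.93e-11).

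**Figure D5:**
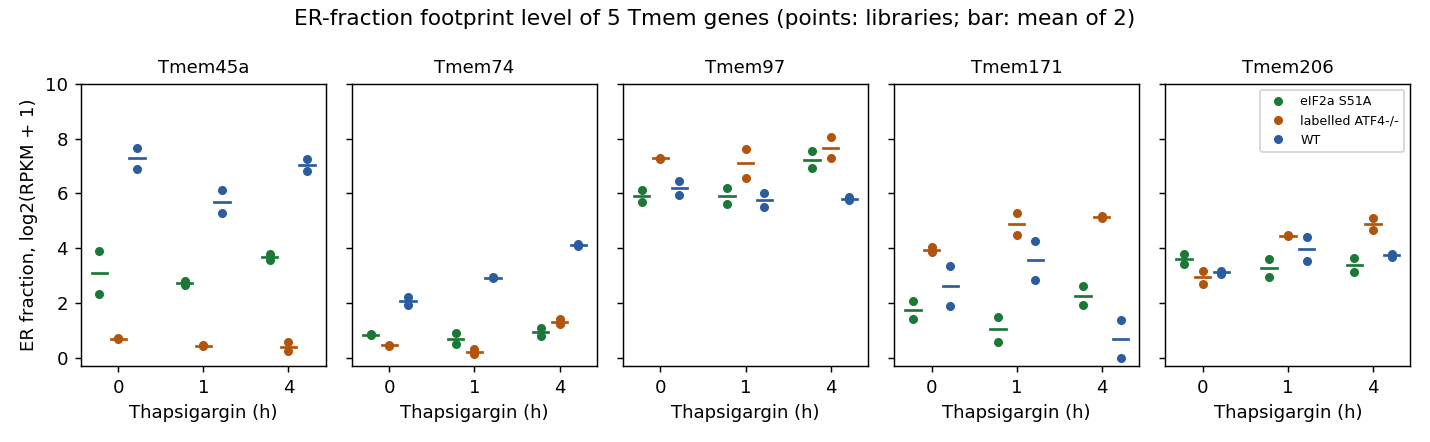
ER footprint level of Tmem45a, Tmem74, Tmem97, Tmem171 and Tmem206 in each library at 0, 1 and 4 h in S51A, the line labelled ATF4-/- and WT, on a log2(RPKM + 1) axis. Tmem45a and Tmem74 are lower in S51A and ATF4-/- than in WT at every time shown, and Tmem171 at 4 h is highest in ATF4-/-, at 35.2 and 33.2 RPKM.

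Higher than WT at 4 h in ATF4-/- were Tmem171 at 3.49 (SE 0.46, adjusted p = 1.02e-07), Tmem223, a gene of complex IV assembly, at 2.42 (adjusted p = 2e-05), Tmem41a at 2.22 (adjusted p = 3.47e-06), Tmem97 at 2.19 (adjusted p = 0.00051) and Tmem138 at 1.97 (adjusted p = 5.35e-05), all by limma. The ER levels of Tmem97 were 154 and 265 RPKM in ATF4-/-, against 57.7 and 52.5 RPKM in WT. Before the drug they were 156 and 152 RPKM in ATF4-/-, against 86.3 and 61.1 RPKM in WT, so the lines were also apart at 0 h. In S51A the largest positive difference was that of Tmem132a at 2.00 (limma adjusted p = 1.01e-05). Tmem254a, Tmem254b and Tmem254c came next at 1.77 to 1.86, but these near-identical copies share reads and are uncertain. WT lists no library under 4 reads for a gene, while the mutant lines list libraries with 1 read, and unlisted values count as 0. The WT cytosol log2 change at 4 h against 0 h was 0 for Tmem132a, Tmem254a, Tmem254b and Tmem254c. The part of the unlike listing in their differences was not tested. Tmem120a was at 1.75 (limma adjusted p = 4.65e-05). By location S51A was higher than WT for 4 and lower for 1 of the 13 ER membrane genes. It was higher for 1 and lower for 3 of the 9 mitochondrial genes. Of all genes 48% were called in either direction.

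The mRNA libraries were shallow, with 57179 to 118992 reads in WT, and tested few of these differences. Between 4 h and 0 h in WT limma called 0 of the 90 Tmem genes tested, against 0.206% of all genes, with 5 at an unadjusted p under 0.05 and 0 by voom. The lowest p was that of Tmem171, at -2.01 (adjusted p = 0.46). A difference of ordinary size was not detectable at this depth. The fraction of mRNA on the ER in WT had medians of 0.715, 0.427, 0.543, 0.586 and 0.654 at 0, 0.5, 1, 2 and 4 h over 55 to 68 genes, and its lowest value, like that of the footprints, was at 0.5 h.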

How the data were processed

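The deposited tables give, per gene, line and time, a total level and a fraction on the ER, for footprints and for mRNA. The deposited totals behave as RPKM, as judged from their values, and the authors deposited, per the file headers, a fraction on ER, read here as the ratio of the ER level to the summed ER and cytosol levels. Bowtie 1.1.1 and cutadapt 1.6 appear in the submitters' processing notes, and no source used here names the authors' genome build. Single libraries were recovered by calculation. The ER level is the total times the fraction, and levels are whole reads times the worth of 1 read per library. This solved 99.97% of 342150 footprint values and 99.56% of 175860 mRNA values. In simulated footprint data the drawn reads came back, leaving aside which library is a or b. The deposited values allow no such check. For mRNA 20 libraries were recovered in WT, 19 in S51A and 10 in ATF4-/-. Those of ATF4-/-, 1 per group, were not fitted. Deposited means run over libraries with reads, and WT lists no library under 4 reads for a gene, while S51A and ATF4-/- list libraries with 1 read.

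Levels were taken as log2(RPKM + 1), with unlisted values as 0. Genes with a level of 1 or more in at least 10 libraries were tested with limma 3.58.1 (trend, R 4.3.3), adjusted over 10467 genes for footprints and 10203 for mRNA (36 libraries). Differences between the recovered libraries of a group were larger than sampling noise (chi-square per degree of freedom 1.97 to 84.1 for footprints and 1.30 to 12.6 for mRNA), so each counted as 1 sample. The scripts were tested on simulated data, where the WT shift at 1 h called more unchanged genes than the threshold allows. The simulation gave every library the same spread beyond sampling noise, a set value not fitted to these data. Its counts may therefore differ from those of the real libraries. The main fit called 87 of 10265 unchanged genes, beside 2 of 66, 14 of 61 and 63 of 73 changed 1.5, 2 and 4 times. Without the shallow libraries these were 46, 0, 5 and 44, so false calls were common in both settings. Once reads were required in every compared library, 8 of 6163 unchanged genes were called, far fewer but still somewhat more than the threshold allows. WT shift counts are therefore also given with that limit. Genes were named by rule: per comparison, the 5 largest called changes in each direction with the same sign in both extracts; the highest and lowest fractions; the genes beside the limit; and location lists from textbook knowledge. The genes and lists were chosen with earlier results of these data known. Alternatives were another pseudocount, no level filter, trimmed-mean scaling, voom, a depth filter and leaving out each library.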

Additional observations from a re-analysis of the deposited data

Results flagged for a closer look

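Effects that differed between lines by a limma test of the difference itself are listed here with their values and no explanation. For the log2 change between 1 h and 4 h, S51A minus WT was 2.94 for Tmem171, 2.17 for Tmem109, 1.83 for Tmem208, 1.44 for Tmem50a, 1.44 for Tmem198b and -1.93 for Tmem154. The last lost its call under 15 alternatives. For the shift of the ER to cytosol ratio between 4 h and 0.5 h, WT minus S51A was -3.85 for Tmem30a, -3.58 for Tmem66, -3.35 for Tmem48, -3.05 for Tmem209 and -2.92 for Tmem106b. Tmem66 lost its call under 19 alternatives and Tmem30a, Tmem48 and Tmem106b under 17 each, while Tmem209 kept it under every alternative that could be fitted for it. At 0.5 h ATF4-/- minus S51A was -3.47 for Tmem14c, which lost its call under 7 alternatives, and -2.73 for Tmem128, which lost it under 13. No group held 4 or more libraries, so single libraries could not be tested for standing apart, and the part of the shallow WT libraries in the WT values was not tested beyond the values given with and without them.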

How the results depend on the processing

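Of 409 counts of called Tmem genes under the alternatives, 293 stayed within 1.5 times the reported count. Of 1467 values of named genes, 1262 kept direction and call, 205 lost the call and 0 changed sign. No paired analysis was possible because the recovered libraries carry no replicate number. The choice of genes at 20 RPKM in place of 5 gave a median untreated WT fraction of 0.904 for ER-flagged genes, against 0.866. Causes of the moves were not tested, except that the depth filter tests fewer genes. Comparisons within S51A or ATF4-/- put no weight on WT libraries, so leaving WT libraries out does not alter their log2 changes.

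Without the 3 shallow WT libraries, an alternative chosen after seeing the data, level calls were 7 in S51A at 4 h, 34 and 39 in ATF4-/- at 1 h and 4 h, and 15 for S51A minus WT between 1 h and 4 h. Shift calls were 52 and 5 in WT at 1 h and 4 h, 71, 28 and 2 in ATF4-/- at 0.5, 1 and 4 h, 24 for WT minus S51A at 1 h, 3 for WT minus S51A between 4 h and 0.5 h and 6 for ATF4-/- minus S51A at 0.5 h. With voom, level calls were 7 in S51A at 4 h, 38 and 41 in ATF4-/- at 1 h and 4 h, 11 in WT between 1 h and 4 h and 16 for S51A minus WT. Shift calls were 1 in S51A at 0.5 h, 62, 27 and 1 in ATF4-/- at 0.5, 1 and 4 h, and 1 for WT minus S51A between 4 h and 0.5 h. With 20 predicted reads in every compared library, level calls were 11 of 35 and 11 of 41 in ATF4-/- at 1 h and 4 h (20.4% and 21.4% of all genes left), 18 of 35 and 14 of 35 for S51A and ATF4-/- against WT at 4 h (56.7% and 62.4%), 0 of 3 for WT between 1 h and 4 h (43.5%), and 0 of 2 for S51A minus WT (28.3%). Shift calls were 4 of 5 and 2 of 3 in WT at 0.5 h and 1 h (23.1% and 10.7%), 7 of 9 in WT between 4 h and 0.5 h (42.5%), 17 of 33 and 8 of 35 in ATF4-/- (22% and 3.58%), and 0 of 4 and 1 of 2 for WT minus S51A at 0.5 h and 1 h (3.27% and 1.59%) and 1 of 8 between 4 h and 0.5 h (0.148%). With reads listed in every compared library, calls were 7 for the WT level between 1 h and 4 h, 27 for the WT shift at 0.5 h, 14 for WT minus S51A at 0.5 h and 1 between 4 h and 0.5 h. Trimmed-mean scaling, with factors of 0.8 to 1.26, gave shift calls of 27 in WT between 4 h and 0.5 h, 1 for WT minus S51A between them, 1 in WT at 4 h, 14 and 6 in ATF4-/- at 0.5 h and 1 h, and 1 for ATF4-/- minus S51A. The WT shift at 4 h had 1 call with no level filter and 6 with a pseudocount of 0.1, against 0. That pseudocount left 1 call for WT minus S51A between 4 h and 0.5 h.

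Leaving out each library in turn gave level calls of 0 to 1 in S51A at 4 h, 10 to 17 and 12 to 16 in ATF4-/- at 1 h and 4 h, 9 to 35 in WT between 1 h and 4 h and 6 to 15 for S51A minus WT. The shift calls ran from 0 to 3 in WT at 4 h, 0 to 4 in S51A at 0.5 h, 23 to 38 and 5 to 11 in ATF4-/- at 0.5 h and 1 h, 17 to 56 and 2 to 17 for WT minus S51A at 0.5 h and 1 h, 33 to 71 in WT and 1 to 43 for WT minus S51A between 4 h and 0.5 h, 0 to 4 for WT minus ATF4-/- at 1 h, and 0 to 2 for ATF4-/- minus S51A. In ATF4-/- the lowest count at 1 h was without ER library b at 0 h for levels, and at 0.5 h without cytosol library b at 0 h for the shift, which was called for 32 genes without ER library b at 0 h.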

Other observations

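Promoters of 90 of the 109 genes were found in the RefSeq promoter table. The 250 bases before each start were searched on both strands for 3 stress motifs. Counts below are of genes, while the percentages are of promoters. The ER stress element, CCAAT and CCACG with 9 bases of any kind between them, bound by ATF6 with NF-Y, was found in 0 of 90, against 0.113% of the 32851 promoters in the table. The amino acid response motif TGATGNAA, bound by ATF4 with C/EBP partners, was found in 2, those of Tmem194 (now Nemp1) and Tmem19, against 3.45%. The cyclic AMP response element TGACGTCA was found in 3, those of Tmem147, Tmem183a and Tmem251, against 1.55%. A match of letters is not a bound site, and no match says only that these letters are not in the window.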
